A study of Mus musculus with 9 samples.

Results

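The IL-6 family was followed through 10 genes chosen by name from the 49548 genes of the deposited tables. They were the ligands Il6, Il11, Lif and Clcf1, the receptor chains Il6st, Il6ra, Osmr and Lifr, the transcription factor gene Stat3 and the feedback inhibitor gene Socs3. All 10 had values above 0 and were tested in each comparison. RNA was sequenced from cultured synovial fibroblasts (SFs) grown from ankle joints of CBA C57BL/6J mice aged 8 weeks, in 3 WT libraries, 3 libraries of untreated hTNFtg SFs and 3 libraries of hTNFtg SFs given infliximab at 1 μg/ml for 48 h. hTNFtg mice carry a human TNF transgene and develop arthritis, and infliximab is an antibody that neutralizes human TNF. The labels of the WT and untreated hTNFtg SFs give no treatment, whereas the methods describe vehicle for 48 h, and in all 3 groups CD45+ cells had been depleted at passage 1. The methods speak of biological replicates without saying whether each library came from its own mouse, so the spread between libraries may in part be technical.

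Cytokines of the IL-6 family signal through the shared chain gp130, encoded by Il6st. IL-6 and IL-11 reach gp130 through their own binding chains (Il6ra, and Il11ra1 in the mouse), LIF and CLCF1 need the LIF receptor Lifr, and oncostatin M uses Osmr. The bound receptors activate JAK kinases and STAT3, and STAT3 induces SOCS3, which binds gp130 and damps the signal. Fibroblasts of the joint lining are a known source of IL-6 and LIF and respond to the family through gp130.

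The stretches of 250 bases before a RefSeq gene start are shown for the 3 ligands for which one was at hand (Lif, Il11 and Il6) and for Socs3, the feedback gene. They were taken from RefSeq on GRCm38.p6, the assembly also named mm10, and are written 5′ to 3′ on the strand of the gene. Capitals mark matches to 3 motifs searched on both strands in the 300 bases from 250 before to 50 after each start. The motifs were the 10-letter κB consensus, the STAT motif TTCNNNGAA and the AP-1 motif TGANTCA, and the STAT and AP-1 motifs read the same on both strands. The Lif stretch lies at chr11:4257318-4257567 on the plus strand, the Il11 stretch at chr7:4778142-4778391 on the minus strand, the Il6 stretch at chr5:30012864-30013113 on the plus strand and the Socs3 stretch at chr11:117969367-117969616 on the minus strand. These RefSeq starts differ from the deposited gene spans given with each gene for Il11 and Socs3, whose stretches lie inside the span, and for Lif, whose stretch runs into it by its last bases. Il11 has another RefSeq start at the edge of its deposited span, whose window held no match and is not shown.
Lif: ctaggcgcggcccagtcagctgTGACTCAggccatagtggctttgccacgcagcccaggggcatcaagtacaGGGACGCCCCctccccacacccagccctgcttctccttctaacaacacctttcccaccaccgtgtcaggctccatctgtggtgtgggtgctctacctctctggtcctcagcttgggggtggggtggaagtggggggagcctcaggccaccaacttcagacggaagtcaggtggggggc
Il11: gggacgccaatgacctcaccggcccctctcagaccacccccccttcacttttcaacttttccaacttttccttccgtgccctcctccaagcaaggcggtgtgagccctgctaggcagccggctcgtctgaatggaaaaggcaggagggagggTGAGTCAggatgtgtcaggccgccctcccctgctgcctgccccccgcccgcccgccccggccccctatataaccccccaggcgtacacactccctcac
Il6: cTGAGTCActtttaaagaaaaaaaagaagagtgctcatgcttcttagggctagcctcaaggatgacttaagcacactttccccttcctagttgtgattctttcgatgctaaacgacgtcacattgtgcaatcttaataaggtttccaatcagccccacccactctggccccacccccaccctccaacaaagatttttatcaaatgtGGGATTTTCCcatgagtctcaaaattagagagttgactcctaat
Socs3: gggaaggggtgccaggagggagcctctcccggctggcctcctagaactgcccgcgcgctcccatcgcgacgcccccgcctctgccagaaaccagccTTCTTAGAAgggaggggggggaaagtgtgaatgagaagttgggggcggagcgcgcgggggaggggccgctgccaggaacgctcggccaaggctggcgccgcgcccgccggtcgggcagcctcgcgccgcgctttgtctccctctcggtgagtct

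Of the 32851 windows of this length in the genome's table, 8.46% held the κB motif, 8.3% the STAT motif and 7.81% the AP-1 motif. Of the 10 genes, 9 had a window (Clcf1 had none). The κB motif was found for 2 genes, in Il6 from 44 to 35 bases before the start and in Lif from 178 to 169, where the same letters match it on both strands. The AP-1 motif was found for 4 genes, namely Il6, Il11, Lif and Osmr. The Lif match lay from 228 to 222 bases before the start, the Il11 match from 98 to 92 and the distal Il6 match from 249 to 243, while the Osmr match lay 3 to 9 bases after the start. The STAT motif was found for Socs3 alone, from 154 to 146 bases before the start. A match is a string of letters and was not tested as a binding site.

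Values are counts per gene that the authors divided by a factor for each library and rounded, given here as normalized counts. In 3′ sequencing each transcript is read near its end, so these counts do not grow with gene length and levels can be set side by side between genes. The libraries held approximately 4521883 to 6521703 reads in WT, 613217 to 9015072 in untreated hTNFtg and 3828623 to 5664198 with infliximab. One library, hTNFtg replicate 1, was much shallower than the rest, and 1 read in it is worth 6.23 normalized counts, against 0.534 to 1.10 elsewhere. Fibroblast markers summed to 43586 to 53914 normalized counts in WT, 38942 to 47097 in untreated hTNFtg and 36789 to 43027 with infliximab, and all 12 of them averaged at least 10 in WT. Among them Pdpn was raised and Lum lowered by the rule given below in hTNFtg versus WT, at log2 fold changes of 2.01 and -1.69, and again in infliximab-treated hTNFtg versus WT. Macrophage markers summed to 216 to 779 in WT, 3418 to 7715 in untreated hTNFtg and 2268 to 4650 with infliximab, and 11 of 14 were raised by the same rule in hTNFtg versus WT. Of the defining markers, Lyz2 was at 43 to 277 in WT and 2284 to 5356 in untreated hTNFtg, Cd68 at 15 to 78 and 149 to 517 and Adgre1 at 3 to 18 and 20 to 62, Ptprc (CD45) reached 31 in untreated hTNFtg and 28 with infliximab, and Cd163 did not exceed 3 in any library. Chondrocyte markers summed to 6216 to 9349 in WT, 548 to 1212 in untreated hTNFtg and 906 to 2517 with infliximab, and 4 of 6 were lowered in hTNFtg versus WT. Most of the WT sums was Comp, at 4373 to 7288 in WT and 299 to 848 in untreated hTNFtg. Col2a1 and Matn3 were not lowered, and Col2a1 was at 51 to 94 in WT, 37 to 88 in untreated hTNFtg and 49 to 133 with infliximab. Osteoclast markers summed to 171 to 893 in WT, 579 to 5003 in untreated hTNFtg and 475 to 1924 with infliximab, with 4 of 7 raised in hTNFtg versus WT and 6 of 7 in infliximab-treated hTNFtg versus WT. Hepatocyte markers set infliximab replicate 3 apart, at a sum of 1025 against 41 to 177 in the other 8 libraries. These are bulk cultures, in which fewer cells of a type and less RNA per cell cannot be told apart.

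In WT SFs the order of the levels ran from Il6st, at 821 ± 60.8 normalized counts (SD, n = 3), down to Lif, at 1.67 ± 0.577. Between them stood Osmr at 490 ± 279, Stat3 at 458 ± 123, Socs3 at 98.7 ± 74.2, Lifr at 71.0 ± 14.5 and Clcf1 at 53.7 ± 32.5. Il6, Il11 and Il6ra followed at 25 ± 10.4, 15.0 ± 7.0 and 6.33 ± 4.16. Neighbours in this order overlapped between libraries except at 2 steps, from Stat3 to Socs3 and from Il6ra to Lif. Il6st, Osmr and Stat3 were at 239 or more normalized counts in every library, whereas each of the 4 ligands stayed under 100 in all 9 libraries. In untreated hTNFtg SFs Il6st, Osmr, Stat3, Socs3 and Lifr kept ranks 1 to 5, and Lif stood at rank 8 in place of rank 10. With infliximab, ranks 1 to 4 held the same genes as in WT, Clcf1 and Il11 came next at ranks 5 and 6, and Lif was again at rank 10. In untreated hTNFtg SFs neighbours were apart from Il6st to Osmr, from Stat3 to Socs3 and from Socs3 to Lifr and overlapped elsewhere. With infliximab they were apart at each step from Il6st through Osmr, Stat3 and Socs3 to Clcf1 and overlapped below.

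The first comparison asks which genes of the family differed between arthritic and WT SFs. Lif was the gene that stood apart: it was at 1 to 2 normalized counts in WT and at 14 to 44 in untreated hTNFtg SFs. Lif alone of the 10 genes passed the study's rule, 1 raised and 0 lowered. The rule takes a gene whose P lies below 0.05 before adjustment and whose log2 fold change reaches 1 or -1. Of all 28522 genes tested, 3.35% were raised and 3.04% lowered by this rule. None of the 10 reached an adjusted p under 0.05 in limma, against 0.48% of all genes, and 2 (Lif and Lifr) had an unadjusted P under 0.05, against 7.72%. The median log2 fold change was 0.0974 over the 10 genes and -0.00344 over all genes tested. Between libraries the groups did not overlap for 3 of the 10, with Lif and Il6st higher and Lifr lower in every hTNFtg library, against 5.63% of all genes higher and 5.8% lower in every library.

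Lif (ENSMUSG00000034394, chr11:4257557-4272514, plus strand) encodes leukemia inhibitory factor, which binds Lifr and gp130. Its normalized counts were 2, 2 and 1 in WT replicates 1 to 3, 44, 27 and 14 in untreated hTNFtg and 8, 18 and 8 with infliximab. All 6 hTNFtg libraries, treated or not, were above all 3 WT libraries, while the untreated and the infliximab libraries overlapped, since 14 in hTNFtg replicate 3 is below 18 in infliximab replicate 2. In hTNFtg versus WT its log2 fold change was 3.35 (SE 0.778, 95% confidence interval 1.64 to 5.05, adjusted p = 0.111 in limma). Because WT held only about 6 reads of Lif over 3 libraries, the fitted fold depends on the 1 added before taking logs. Across the 11 other settings the log2 fold change of Lif ran from 2.22 to 3.83. The summed reads, 65 in hTNFtg against 6 in WT, gave a depth-corrected ratio of 12.4 with an interval of 5.40 to 35.0 that covers counting error only. The quasi-likelihood test of edgeR on the approximate reads gave a log2 fold change of 3.83 with an adjusted p of 0.000301, where 3.23% of all genes had one under 0.05. Macrophage marker sums were also higher in the hTNFtg libraries. The highest sum, 7715 in hTNFtg replicate 1, included 5356 of Lyz2. Single markers peaked in different libraries, with Adgre1 highest in hTNFtg replicate 1, at 62, and Cd68 in hTNFtg replicate 3, at 517. The part of these markers in the result was not tested. Without hTNFtg replicate 1, where the value of 44 stands for 7 reads, the limma estimate was 2.97 and passed the rule.

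**Figure D1:**
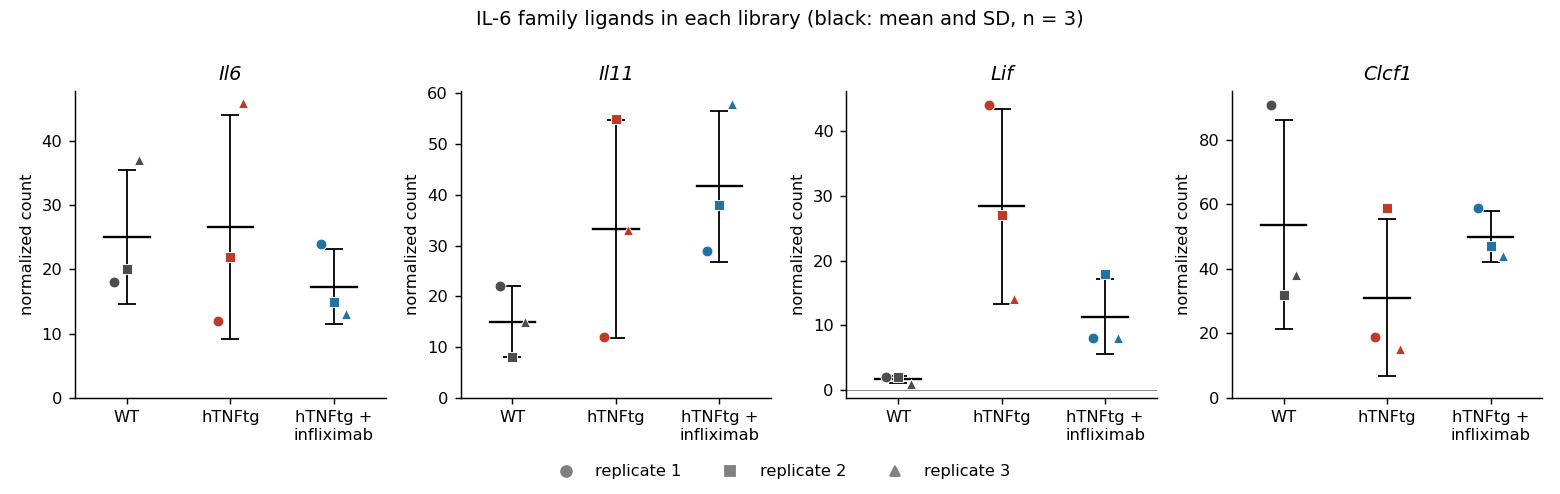
Normalized counts of the 4 ligands (vertical axes, linear, starting at or just below 0) in the 9 libraries by group (horizontal axis), with the mean and SD of 3 libraries in black and the replicate number as the symbol. Lif lies at 1 to 2 in WT and at 14 to 44 in untreated hTNFtg SFs, whereas the Il6 and Clcf1 libraries of the 3 groups overlap.

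Il6 (ENSMUSG00000025746, chr5:30013114-30019981, plus strand), which encodes the family's name-giving cytokine, was at 18, 20 and 37 normalized counts in WT, 12, 22 and 46 in untreated hTNFtg and 24, 15 and 13 with infliximab. The groups overlapped throughout, and the highest values were those of replicate 3 in WT and in untreated hTNFtg. In hTNFtg versus WT the log2 fold change was -0.04 (95% confidence interval -1.34 to 1.27, adjusted p = 1 in limma), an interval that reaches past 1 log2 unit on both sides. The 12 of hTNFtg replicate 1 stands for 2 reads, for which counting error alone allows 1.51 to 45.0 normalized counts. Without that library the estimate was 0.41 and did not pass the rule.

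Il11 (ENSMUSG00000004371, chr7:4772373-4782857, minus strand) encodes interleukin-11, a gp130 cytokine made by fibroblasts and other stromal cells. It was at 22, 8 and 15 normalized counts in WT, 12, 55 and 33 in untreated hTNFtg and 29, 38 and 58 with infliximab. Only hTNFtg replicate 1, at 12 and again 2 reads, fell within the WT range, and the other 5 hTNFtg libraries were above it. Il11 had a log2 fold change in hTNFtg versus WT of 0.97 (95% confidence interval -0.49 to 2.43, adjusted p = 0.726 in limma). Here 1 library decided the call: without hTNFtg replicate 1 the estimate was 1.55, and edgeR on the reads, which weights libraries by depth, gave 1.26 (adjusted p = 0.321), past the rule in both cases.

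Clcf1 (ENSMUSG00000040663, chr19:4214238-4223490, plus strand) encodes cardiotrophin-like cytokine factor 1, a ligand of this family. It was at 91, 32 and 38 normalized counts in WT, 19, 59 and 15 in untreated hTNFtg and 59, 47 and 44 with infliximab. WT replicate 1 and hTNFtg replicate 2 stood high and the groups overlapped. Clcf1 had a log2 fold change in hTNFtg versus WT of -0.87 (95% confidence interval -2.18 to 0.43, adjusted p = 0.726 in limma). It passed the rule as lowered, at -1.46, without hTNFtg replicate 2, and with array quality weights, which give poorer libraries less influence, its sign turned to 0.14.

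The mix of the 4 ligands was read within each library, where depth and scaling cancel. Their sum was 62 to 133 normalized counts in WT, 87 to 163 in untreated hTNFtg and 118 to 123 with infliximab. Lif made up 1.10% to 3.23% of it in WT, 13.0% to 50.6% in untreated hTNFtg and 6.50% to 15.2% with infliximab. The upper value of 50.6% is that of hTNFtg replicate 1, where Lif rests on 7 reads, and the other untreated hTNFtg libraries were at 16.6% and 13.0%, which overlaps the infliximab range. Clcf1 made up 41.8% to 68.4% in WT, 13.9% to 36.2% in untreated hTNFtg and 35.8% to 49.2% with infliximab. The share of Il11 was 12.9% to 16.5% in WT, 13.8% to 33.7% in untreated hTNFtg and 24.2% to 47.1% with infliximab. These shares rest on few reads and are given without a test.

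Il6st (ENSMUSG00000021756, chr13:112464070-112510086, plus strand), the gp130 gene and the most abundant of the 10, was at 782, 790 and 891 normalized counts in WT, 997, 975 and 1798 in untreated hTNFtg and 1128, 952 and 997 with infliximab. Each of the 6 hTNFtg libraries was above the highest WT library, and hTNFtg replicate 3 stood far above the rest. In hTNFtg versus WT the log2 fold change of Il6st was nevertheless 0.56, with a 95% confidence interval of -0.18 to 1.29 (adjusted p = 0.726 in limma). Lifr (ENSMUSG00000054263, chr15:7129559-7197489, plus strand), which pairs with gp130 for LIF and CLCF1, was at 72, 85 and 56 normalized counts in WT, 37, 25 and 49 in untreated hTNFtg and 21, 38 and 50 with infliximab. It was lower in every hTNFtg library than in every WT library. Its log2 fold change in hTNFtg versus WT was -0.95 (SE 0.399, 95% confidence interval -1.83 to -0.08, adjusted p = 0.579 in limma), just short of the fold limit. It passed the rule at -1.11 without WT replicate 3, at -1.18 without hTNFtg replicate 3 and at -1.37 with array quality weights. Chondrocyte marker sums were lower in the same hTNFtg libraries (548 to 1212 against 6216 to 9349 in WT). Among these markers Col2a1 was not lowered, at a log2 fold change of -0.08. The part of these markers in the result was not tested.

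Osmr (ENSMUSG00000022146, chr15:6813577-6874969, minus strand), the oncostatin M receptor chain, was at 790, 442 and 239 normalized counts in WT, 642, 620 and 270 in untreated hTNFtg and 508, 540 and 589 with infliximab. Replicate 3 was the lowest both in WT and in untreated hTNFtg, and the 3 infliximab libraries lay close together between these extremes. The log2 fold change in hTNFtg versus WT was 0.12 (95% confidence interval -0.90 to 1.14, adjusted p = 0.942 in limma). Il6ra (ENSMUSG00000027947, chr3:89864059-89913196, minus strand), the IL-6 binding chain, was at 3, 5 and 11 normalized counts in WT, 6, 10 and 22 in untreated hTNFtg and 19, 7 and 12 with infliximab. It was the least abundant of the 4 receptor chains in every library, with 59.4 to 261 normalized counts of Il6st for each of Il6ra. Its log2 fold change in hTNFtg versus WT was 0.87 (95% confidence interval -0.91 to 2.66, adjusted p = 0.726 in limma), while the summed reads gave a ratio of 2.38 with a counting interval of 1.46 to 3.95. Il6ra is also expressed by macrophages, whose markers were 3418 to 7715 in untreated hTNFtg against 216 to 779 in WT. Their part in the result was not tested.

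**Figure D2:**
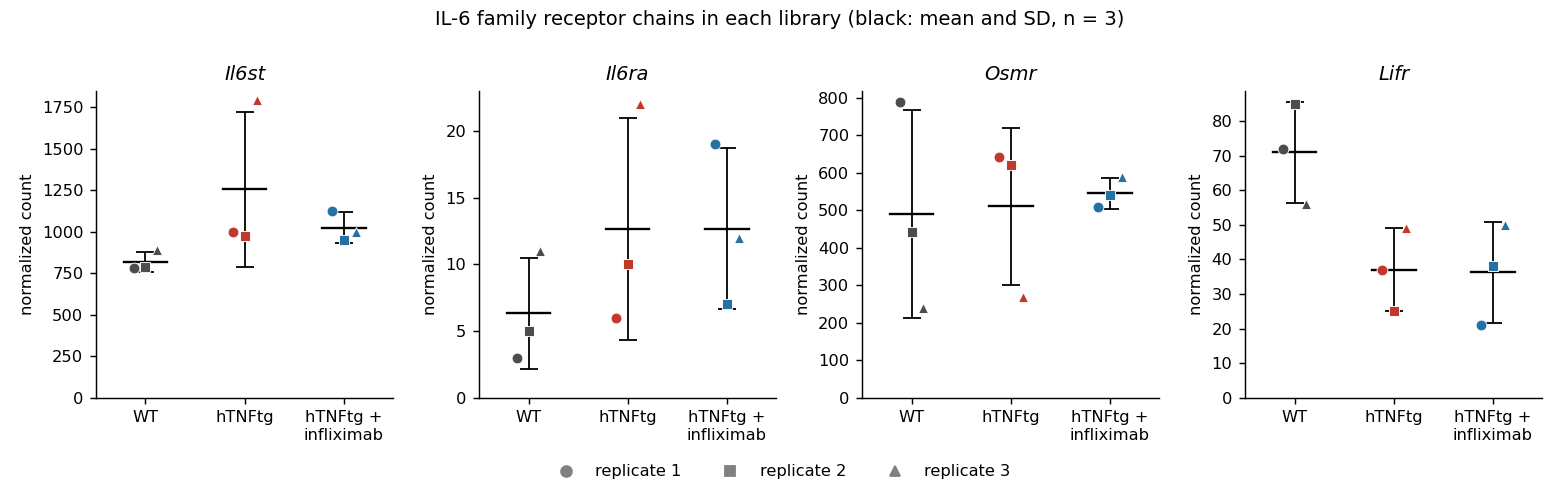
Normalized counts of the 4 receptor chains (vertical axes, linear, one scale per gene) in the 9 libraries by group, with the mean and SD of 3 libraries in black and the replicate number as the symbol. Il6st lies at 952 to 1798 in the hTNFtg libraries against 782 to 891 in WT, and Lifr at 21 to 50 against 56 to 85, while Osmr and Il6ra overlap.

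The balance of the receptor chains was read as ratios within each library. Each WT library held 4.27 to 10.97 normalized counts of Osmr for each of Lifr, the untreated hTNFtg libraries 5.51 to 24.8 and the infliximab libraries 11.8 to 24.2. For each count of Lifr there were 9.29 to 15.9 counts of Il6st in WT, 26.9 to 39.0 in untreated hTNFtg and 19.9 to 53.7 with infliximab. The last ratio was higher in all 6 hTNFtg libraries than in the 3 WT libraries. It combines genes already described above and was given no test of its own.

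Stat3 (ENSMUSG00000004040, chr11:100885098-100939540, minus strand), the main transcription factor of the pathway, was at 600, 397 and 377 normalized counts in WT, 592, 425 and 381 in untreated hTNFtg and 434, 405 and 480 with infliximab. Replicate 1 was the highest in WT and in untreated hTNFtg, and the groups were otherwise nearly level. The log2 fold change in hTNFtg versus WT was 0.03 with a 95% confidence interval of -0.66 to 0.72 (adjusted p = 1 in limma). Stat3 shares its last 72 bases with the converging gene Stat5a, which stood at 19 to 105 normalized counts, so reads falling there could be assigned to either. Socs3 (ENSMUSG00000053113, chr11:117966079-117970047, minus strand), the feedback inhibitor induced by STAT3, was at 181, 78 and 37 normalized counts in WT, 156, 77 and 51 in untreated hTNFtg and 98, 131 and 131 with infliximab. The spread within WT ran from 37 to 181 and covered all values of the other groups. The log2 fold change of Socs3 in hTNFtg versus WT was 0.07 (95% confidence interval -1.17 to 1.32, adjusted p = 0.989 in limma).

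The second comparison asks which genes changed when TNF was blocked for 48 h in hTNFtg SFs. None of the 10 genes passed the rule in infliximab-treated versus untreated SFs, 0 raised and 0 lowered, and the groups overlapped for all 10. Of the 28540 genes tested, 1.49% were raised and 0.936% lowered by the rule, and 3.99% were higher and 3.44% lower in every library. None of the 10 had an unadjusted P under 0.05 in limma, against 3.59% of all genes, and edgeR called none of them either. Over all genes limma gave 0 at an adjusted p under 0.05 and 1026 at an unadjusted P under 0.05, where edgeR gave 165, or 0.578%, at an adjusted p under 0.05. The median log2 fold change was 0.00951 over the 10 genes.

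Lif had the lowest log2 fold change of the 10 with infliximab, at -1.21 (SE 0.653, 95% confidence interval -2.61 to 0.20, adjusted p = 0.803 in limma). The summed reads gave a ratio of 0.556 with a counting interval of 0.362 to 0.842, which leaves out the spread between libraries. Lif passed the rule at -1.62 without hTNFtg replicate 3 and at -1.16 with array quality weights. Clcf1 had the highest, at 0.92 (95% confidence interval -0.20 to 2.04, adjusted p = 0.803 in limma), and it passed the rule at 1.5 without hTNFtg replicate 2. The log2 fold changes of Il11, Socs3 and Il6 were 0.49, 0.48 and -0.44, with adjusted p of 0.803, 0.803 and 0.842 in limma. Those of the 4 receptor chains lay between -0.24 for Il6st and 0.20 for Osmr, and that of Stat3 was -0.06. The confidence intervals were narrowest for Stat3 (-0.67 to 0.55), Il6st (-0.94 to 0.47) and Osmr (-0.55 to 0.94). For Il6ra the interval ran from -1.54 to 1.69.

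Infliximab-treated hTNFtg SFs were also compared with WT SFs, to see which differences were present under the treatment. Il11 and Lif passed the rule as raised and Lifr as lowered, which is 2 and 1 of 10, against 3.86% and 2.95% of the 28243 genes tested. In the same comparison 12 of 14 macrophage markers were raised and 4 of 6 chondrocyte markers lowered. Their part in the result was not tested. Il11 had a log2 fold change of 1.46 (SE 0.438, 95% confidence interval 0.48 to 2.44, adjusted p = 0.199 in limma), and all 3 infliximab libraries were above all 3 WT libraries. Its highest value, 58, was that of infliximab replicate 3, the library set apart by hepatocyte markers. Lif had 2.14 (SE 0.587, 95% confidence interval 0.82 to 3.45, adjusted p = 0.162), and its summed reads gave a ratio to WT of 6.89 with a counting interval of 2.89 to 19.9. This fit also depends on the 1 added, and over the 10 other settings that tested Lif its log2 fold change ran from 1.24 to 2.72. In edgeR the adjusted p was 0.0139 for Il11 and 0.0363 for Lif, where 4.68% of all genes had one under 0.05. Lifr had -1.01 (SE 0.343, 95% confidence interval -1.78 to -0.24, adjusted p = 0.256 in limma), at the edge of the fold limit, and its call was lost under 5 of 11 other settings and without 3 of the 6 libraries in turn. The groups did not overlap for 4 of the 10, the fourth being Il6st, which was higher in every library at a log2 fold change of 0.32 (adjusted p = 0.5). In all, 7.14% of the genes tested were higher and 7.07% lower in every library, 11.9% had an unadjusted P under 0.05 and 0.74% an adjusted p under 0.05. Untreated hTNFtg, infliximab-treated hTNFtg and WT libraries each serve in 2 of the 3 comparisons, so the comparisons are not independent of one another. No test of the difference between them was made.

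**Figure D3:**
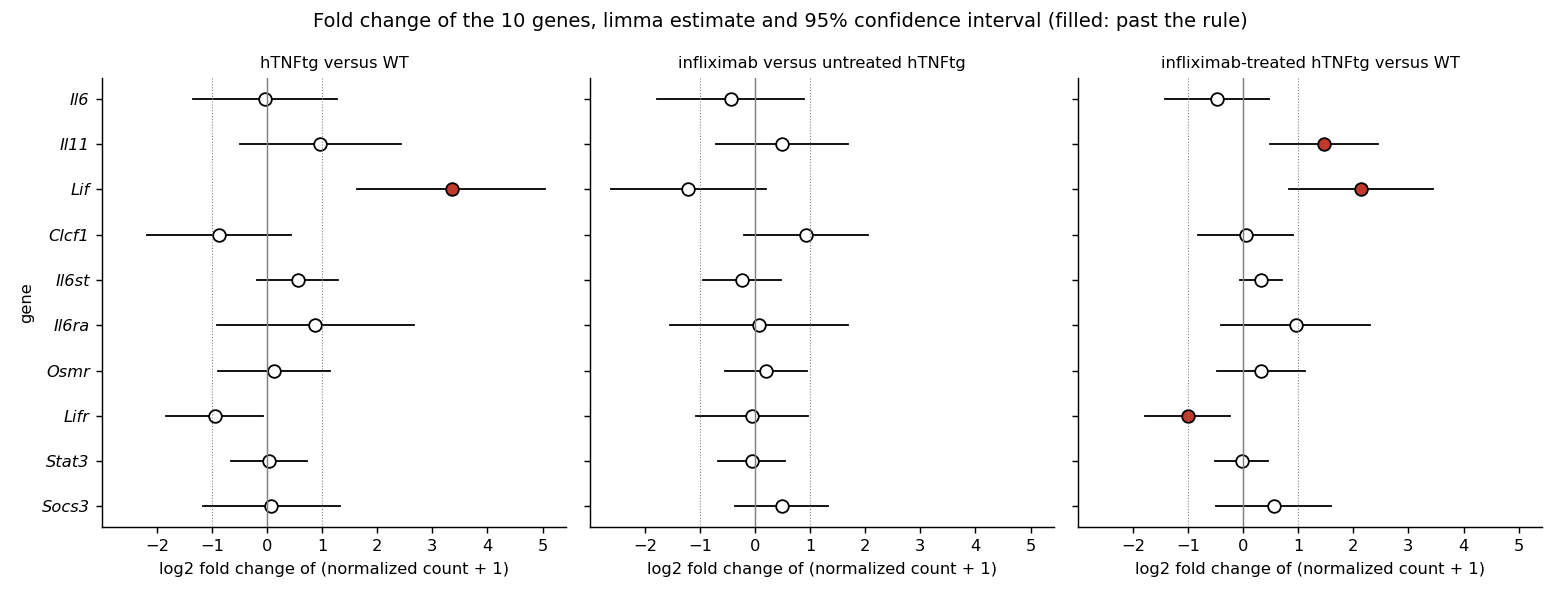
Log2 fold change of normalized count plus 1 (horizontal axis) of the 10 genes (vertical axis) in the 3 comparisons, with the 95% confidence interval of limma as a bar, dotted lines at the fold limits of -1 and 1 and filled points for genes past the rule. Lif is filled in hTNFtg versus WT at 3.35, no gene is filled for infliximab versus untreated hTNFtg, and Il11, Lif and Lifr are filled in the comparison of infliximab-treated hTNFtg with WT SFs.

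The other genes of the pathway were described from 5 lists: ligands, receptors, kinases with STATs and adaptors, feedback inhibitors, and STAT3-responsive genes. Of 10 ligands in hTNFtg versus WT, 2 were raised and 0 lowered, against 3.35% and 3.04% of all genes. The list median was 0.72, against -0.00344 over all genes. That median counts Ctf1 and Ctf2, whose reads could not be told apart, and Osm and Il27, whose limits are given below. Ebi3, a subunit of interleukin-27 and interleukin-35, was at 0, 1 and 1 normalized counts in WT, 25, 17 and 23 in untreated hTNFtg and 7, 10 and 11 with infliximab. Its log2 fold change in hTNFtg versus WT was 3.82 (adjusted p = 0.0738 in limma; adjusted p = 0.000117 in edgeR), a fit that depends on the 1 added, and it was 2.68 in infliximab-treated hTNFtg versus WT. Ebi3 is known from macrophages, whose markers were higher in the same libraries, and their part in the result was not tested.

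Osm, the gene of oncostatin M, was at 0 in 7 of the 9 libraries, at 6 in hTNFtg replicate 1, which is a single read, and at 1 in infliximab replicate 3. Ctf1 and Ctf2, the cardiotrophin genes, share 87 bases at their ends and had the same values in 8 of 9 libraries, from 2 to 19, so their reads could not be told apart. Il27 shares 103 bases with Apobr, and its 37 to 102 normalized counts followed those of Apobr, which were 37 to 103, so they cannot be credited to Il27.

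Among 9 receptors none was raised and 2 were lowered in hTNFtg versus WT, against 3.35% and 3.04% of all genes. The list median was -0.51. Il11ra1, the interleukin-11 binding chain, was at 2692, 3788 and 6605 normalized counts in WT, 698, 1849 and 3150 in untreated hTNFtg and 2345, 1805 and 1115 with infliximab. The groups overlapped with untreated hTNFtg SFs and did not with infliximab-treated SFs. Its log2 fold change was -1.35 in hTNFtg versus WT (adjusted p = 0.562 in limma) and -1.28 in infliximab-treated hTNFtg versus WT (adjusted p = 0.172). Il11ra2 is a near-identical copy, at 44 to 405 normalized counts, whose reads may be split with Il11ra1, and it passed the rule in both comparisons at -1.18 and -1.19. Without hTNFtg replicate 1 the values in hTNFtg versus WT were -0.75 and -0.66 and neither passed, and both calls held in only 1 of the 6 fits that left out a library, the one without hTNFtg replicate 3. In infliximab-treated hTNFtg versus WT both missed the rule without WT replicate 3 or infliximab replicate 3, and Il11ra2 also without infliximab replicate 2. The call of Il11ra2 in hTNFtg versus WT was also lost with a pseudocount of 5, a minimum mean of 10 and array quality weights. The deposited span of Il11ra1 also overlaps other genes, among them Ccl27a, a chemokine gene on the other strand that shares 8 bases with it. Ccl27a stood at 1.86 to 1.99 times the value of Il11ra1 in each of the 9 libraries, so these levels and calls cannot be credited to Il11ra1.

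Of 11 kinases, STATs and adaptors in hTNFtg versus WT, 0 were raised and 1 lowered, against 3.35% and 3.04% of all genes. The list median was -0.06. Gab1, a docking protein for gp130 signalling through SHP2, was at 82, 57 and 81 normalized counts in WT, 19, 35 and 53 in untreated hTNFtg and 35, 51 and 33 with infliximab. Its log2 fold change was -1.11 (adjusted p = 0.516 in limma), and it missed the rule without WT replicate 1 or 3, without hTNFtg replicate 2 and, at -0.73, without hTNFtg replicate 1, and also with array quality weights and with edgeR, at -0.94 (adjusted p = 0.422). Grb2, the adaptor with the highest value of the list, had 0.43 (adjusted p = 0.726). With infliximab versus untreated hTNFtg none of this list passed, against 1.49% of all genes raised and 0.936% lowered. The list's values ran from -0.76 for Sos1, an exchange factor for RAS, to 0.53 for the kinase gene Jak1 (adjusted p = 0.803 for both in limma).

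Of 10 feedback inhibitors in hTNFtg versus WT, 1 was raised and 0 lowered, against 3.35% and 3.04% of all genes. The list median was 0.06. Ptpn6, which encodes the phosphatase SHP1 of blood cells, was at 2, 1 and 0 normalized counts in WT, 75, 16 and 22 in untreated hTNFtg and 10, 14 and 22 with infliximab, with a log2 fold change of 4.09 (adjusted p = 0.0813 in limma) in hTNFtg versus WT. It stood beside the macrophage marker sums given above, and their part in the result was not tested. Socs1 encodes a JAK inhibitor induced by interferons and by gp130 cytokines. With infliximab it was the 1 gene of this list raised by the rule, against 1.49% of all genes. It was at 98, 17 and 27 normalized counts in WT, 19, 22 and 6 in untreated hTNFtg and 38, 53 and 43 with infliximab. All infliximab libraries were above all untreated hTNFtg libraries, at a log2 fold change of 1.62 (adjusted p = 0.803 in limma), which missed the rule without infliximab replicate 2. WT replicate 1 stood above all of them. Socs1 had the lowest value of the list in hTNFtg versus WT, -1.32, and with infliximab versus untreated hTNFtg Ptpn6 had the lowest, -0.99, neither past the rule. Socs1 did pass as lowered in hTNFtg versus WT with robust eBayes and with edgeR, at -1.71 (adjusted p = 0.056).

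STAT3-responsive genes moved in both directions in hTNFtg versus WT: 6 of 20 were raised and 2 lowered, with a median of 0.45, against 3.35% and 3.04% of all genes. In the same libraries 11 of 14 macrophage markers were raised and 4 of 6 chondrocyte markers lowered, and their part in these counts was not tested. Icam1, an adhesion molecule that TNF also induces, was at 21, 16 and 29 normalized counts in WT, 131, 103 and 157 in untreated hTNFtg and 65, 70 and 52 with infliximab. It was the gene of this list with the highest log2 fold change, 2.53 (adjusted p = 0.0189 in limma), and it was lowered by the rule with infliximab at -1.04 (adjusted p = 0.803). The 3 groups did not overlap, with the infliximab libraries between the others. Ccnd1, the gene of cyclin D1, was at 1017, 1237 and 1039 normalized counts in WT, 2965, 3538 and 3566 in untreated hTNFtg and 3470, 2781 and 2755 with infliximab, and its log2 fold change in hTNFtg versus WT was 1.61 (adjusted p = 0.0646 in limma). Hp, an acute-phase haptoglobin gene, was at 254, 172 and 379 normalized counts in WT, 436, 1086 and 653 in untreated hTNFtg and 442, 319 and 226 with infliximab. It had a log2 fold change of 1.40 in hTNFtg versus WT (adjusted p = 0.22) and of -1.09 with infliximab (adjusted p = 0.803), although the treated and untreated libraries overlapped at 436 and 442.

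The remaining raised genes of this list were Timp1, an inhibitor of matrix metalloproteinases, at 1.14, Il4ra, the interleukin-4 receptor chain, at 1.53, and the AP-1 gene Fos at 2.29. Fos was at 22, 9 and 1 normalized counts in WT and at 118, 15 and 27 in untreated hTNFtg, so that the groups overlapped. The lowered genes were Lrg1, a secreted glycoprotein, at -2.86 and the serpin gene Serpina3n at -2.30. Lrg1 was at 15, 5 and 15 normalized counts in WT and 0, 3 and 0 in untreated hTNFtg. The count raised fell to 3 without WT replicate 2 and to 3 without WT replicate 3, and leaving out any 1 library gave 3 to 7 raised and 1 to 2 lowered. Without hTNFtg replicate 1, 4 of the list were raised and 2 lowered, with Fos, Il4ra and Serpina3n missing the rule and Lcn2, the lipocalin-2 gene, passing it as lowered. Ccnd1, Hp, Icam1 and Lrg1 passed in all 6 such fits, Timp1 in 3, Fos and Il4ra in 2 and Serpina3n in 1. Fos and Serpina3n also missed the rule with a pseudocount of 5, a minimum mean of 10 and array quality weights, and Serpina3n with all 9 libraries in one fit. Of the 20 genes, 0 were raised and 2 lowered with infliximab, against 1.49% and 0.936% of all genes. The lowered count was 0 without infliximab replicate 3. The highest value of the list with infliximab was 1.42 for Serpina3n, which did not pass. Hp missed the rule also without hTNFtg replicate 2 or infliximab replicate 2, and Icam1 also without hTNFtg replicate 3, with a pseudocount of 5, with TMM scaling and with array quality weights. In infliximab-treated hTNFtg versus WT, 3 were raised (Ccnd1, Il4ra and Icam1) and 1 lowered (Lcn2), against 3.86% and 2.95% of all genes. Leaving out any 1 library there gave 2 to 6 raised and 0 to 2 lowered. Il4ra passed in 1 and Lcn2 in 2 of the 6 fits that left out a library.

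**Figure D4:**
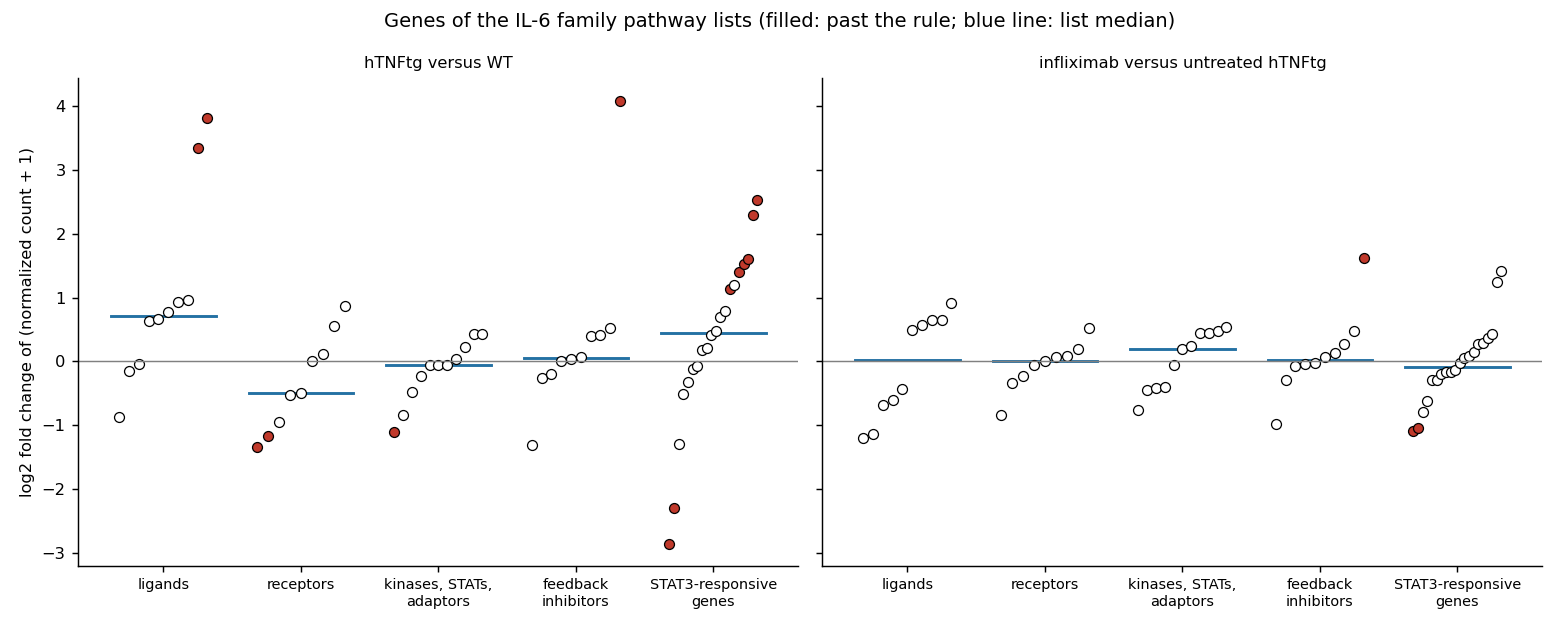
Log2 fold change of normalized count plus 1 (vertical axis) of each gene in the 5 pathway lists (horizontal axis, genes sorted by value within a list), in hTNFtg versus WT and in infliximab-treated versus untreated hTNFtg SFs, with the list median as a line and genes past the rule filled. In hTNFtg versus WT, 9 genes are filled above 0 and 5 below, whereas 1 is filled above 0 and 2 below for infliximab versus untreated hTNFtg.

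The genes whose library-to-library pattern was most like that of Lif were Ccl2, Traf1 and the pseudogene H2-T-ps. Likeness was the root mean square difference of log2(normalized count + 1), each gene centred on its mean over the 9 libraries, among 11793 genes with a mean of at least 10. The difference was 0.395 for Ccl2, 0.521 for Traf1 and 0.523 for H2-T-ps, against a spread of 1.47 for Lif itself. Ccl2, a monocyte chemokine, was at 545, 329 and 207 normalized counts in WT, 4914, 3855 and 2579 in untreated hTNFtg and 1639, 1958 and 1954 with infliximab. Traf1, a TNF receptor adaptor, was at 1, 2 and 3, at 31, 17 and 9 and at 10, 13 and 9 in the same order. Like Lif, both had their highest value in hTNFtg replicate 1. The choice by likeness over the same libraries favours such a shared peak, so it is no separate result. For Il11 the most alike were Il17rd, Phlda1 and Slc16a6, at 0.276, 0.372 and 0.391 against a spread of 0.883 for Il11. These 3 genes were at 12, 12 and 6 normalized counts in hTNFtg replicate 1, which is 1 or 2 reads. The part of that library's depth in the likeness was not tested.

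**Figure D5:**
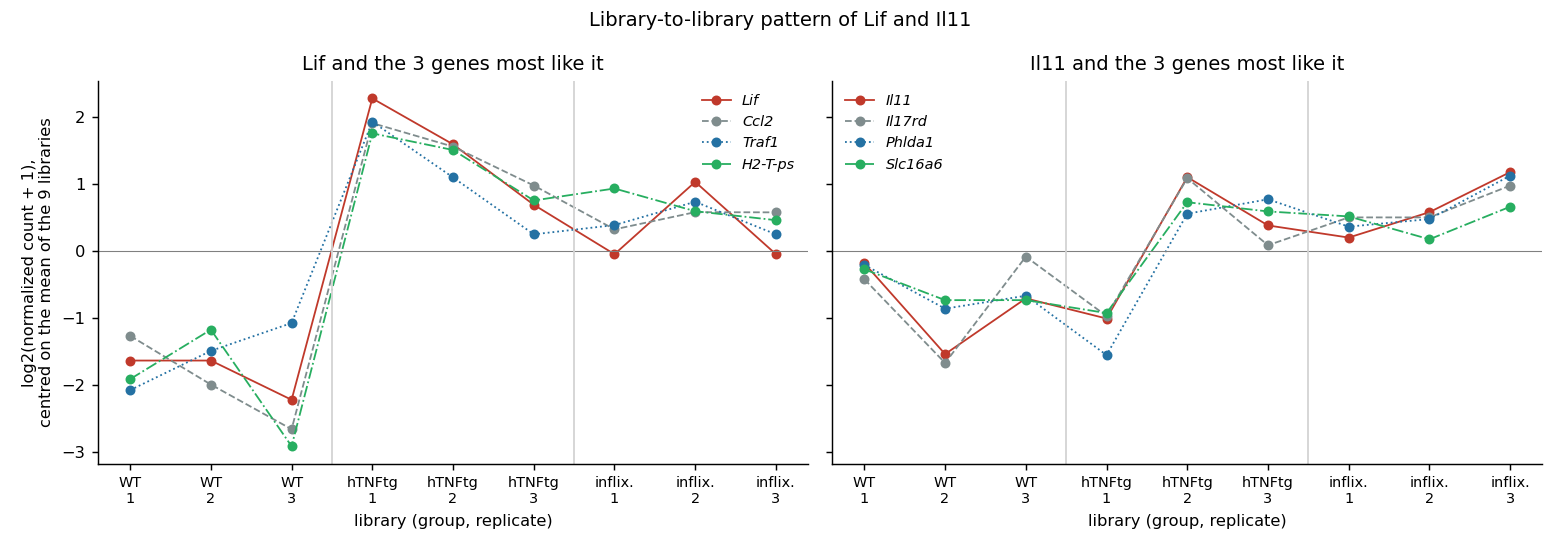
Log2(normalized count + 1) centred on the mean of the 9 libraries (vertical axis) for Lif (left) and Il11 (right), each with the 3 genes most like it, in the 9 libraries by group and replicate (horizontal axis), with lines only to guide the eye. The Lif set is low in the 3 WT libraries and highest in hTNFtg replicate 1, and the Il11 set is low in hTNFtg replicate 1 and high in the other hTNFtg libraries.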

How the data were processed

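3′ mRNA libraries (QuantSeq, Ion Proton) of WT, untreated hTNFtg and infliximab-treated hTNFtg SFs were analysed, 3 per group. According to the methods and the submitters' processing notes, the authors mapped reads to mm10 with TopHat2 and Bowtie2, counted them per gene with GenomicRanges and normalized with DESeq, in versions and with a strand setting not given in the sources used here. The values deposited by the authors are a score, whole numbers left after each library's counts were divided by a factor of its own. The signal that the authors deposited for hTNFtg replicate 1 consists of whole reads times such a factor, and these reads can be read back. With 6.23 normalized counts per read there, rounding moves a value by under 0.1 read. With 0.534 to 1.10 elsewhere rounding can move it by more, so reads of the other libraries are approximate. For that reason 100% of low values lay within 0.1 read of a multiple in hTNFtg replicate 1, against 7.62% to 38.6% elsewhere. Untreated hTNFtg values were identical in both tables. The 24 per-sample columns of other normalized forms were not used, nor were the authors' own columns of fold changes and P values.

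limma 3.58.1 (eBayes with trend, two-sided) in R 4.3.3 was run on log2(normalized count + 1) over genes with a value in any of the 6 libraries of a comparison, with Benjamini-Hochberg adjustment over all genes tested. Fold changes are on this scale, which understates those of low genes. Genes were called by the study's limits, a P below 0.05 before adjustment and a log2 fold change that reaches 1 or -1, with no covariate. edgeR 4.0.16 (quasi-likelihood) was run on the approximate reads as an alternative, and it called 2411, 1228 and 2051 genes by the rule in hTNFtg versus WT, in treated versus untreated hTNFtg and in treated hTNFtg versus WT. The scripts were tested on simulated data. Intervals on reads are exact 95% intervals and cover counting error only. Alternatives were pseudocounts of 0.5 and 5, a minimum mean of 10, quantile, median-ratio and TMM scaling, array quality weights, robust eBayes, a replicate block, all 9 libraries in one fit and leaving out each library.

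The genes and lists were chosen with earlier results of these data known. Named genes are the 10 genes, the pathway genes called in either of the first 2 comparisons, the highest and lowest of each list in those comparisons with a mean of at least 10, and the 3 genes most like each ligand. Osm, Ctf1, Ctf2, Il27, Lcn2 and the genes overlapping a named gene fall outside this rule and were chosen after their values were seen. Promoter sequences are from RefSeq, and the κB consensus used in their search allowed either purine or either pyrimidine at 3 of its positions. One further gene of the ligand list is not reported here, and the counts and median of that list are over the other 10.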

Additional observations from a re-analysis of the deposited data

How the results depend on the processing

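The call of Lif in hTNFtg versus WT held under all 11 alternatives and without each of the 6 libraries in turn, and so did that of Il11 in infliximab-treated hTNFtg versus WT. Counts of called genes among the 10 were small and moved as follows, always against the counts in the report. In hTNFtg versus WT, 2 were raised (Il11 and Lif) with array quality weights and with edgeR on the reads, and 1 was lowered (Lifr) with array quality weights. In infliximab versus untreated hTNFtg, 1 was lowered (Lif) with array quality weights. In infliximab-treated hTNFtg versus WT, 1 was raised (Il11) with a minimum mean of 10, under which Lif was not tested, and 0 were lowered with a pseudocount of 5, median-ratio scaling, TMM scaling, the replicate block or edgeR, where Lifr came to -0.93, -0.997, -0.996, -1.01 and -0.91. Leaving out 1 library at a time, the number raised was 1 to 2 and lowered 0 to 1 in hTNFtg versus WT, raised 0 to 1 and lowered 0 to 1 in infliximab versus untreated hTNFtg, and raised 2 to 3 and lowered 0 to 1 in infliximab-treated hTNFtg versus WT, where Socs3 passed as raised, at 1.13, without WT replicate 1. The causes were not tested.

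Directions turned only for genes that were not called. In hTNFtg versus WT the log2 fold change of Il6 was 0.19, Stat3 -0.041 and Socs3 -0.23 with edgeR, Stat3 -0.0075 with TMM scaling and Clcf1 0.14 with array quality weights. In infliximab versus untreated hTNFtg, array quality weights gave Il11 -0.30, Osmr -0.10, Lifr 0.30 and Stat3 0.0092, and edgeR gave Il6ra -0.18 and Lifr 0.018. In infliximab-treated hTNFtg versus WT, edgeR gave Clcf1 -0.071 and array quality weights gave Stat3 0.027. Leaving out 1 library at a time in hTNFtg versus WT, Il6 ranged from -0.52 to 0.41, Osmr from -0.31 to 0.55, Stat3 from -0.15 to 0.24 and Socs3 from -0.48 to 0.65. In infliximab versus untreated hTNFtg, Il6 ranged from -0.89 to 0.038, Il11 from -0.089 to 0.96, Il6st from -0.39 to 0.053, Il6ra from -0.32 to 0.54, Osmr from -0.21 to 0.41, Lifr from -0.33 to 0.28 and Stat3 from -0.19 to 0.12. In infliximab-treated hTNFtg versus WT, Clcf1 ranged from -0.24 to 0.50, Osmr from -0.12 to 0.74 and Stat3 from -0.15 to 0.18.

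Replicate numbers are shared between groups. Across 13600 genes, deviations of same-numbered libraries correlated at 0.292, -0.14 and 0.353 between hTNFtg and WT. The values were 0.0698, 0.197 and 0.265 between infliximab and untreated hTNFtg and 0.102, -0.147 and 0.0125 between infliximab and WT. Differently numbered libraries correlated at -0.485 to 0.237, -0.256 to 0.126 and -0.174 to 0.216 in the same order. These values do not settle whether the numbers pair the libraries. The main fits therefore took no pairing, and a replicate block was an alternative. The replicate block changed 1 call among the 10 genes, that of Lifr in infliximab-treated hTNFtg versus WT, and all genes raised in hTNFtg versus WT then numbered 855 against 956. Among the named pathway genes the block also ended the calls of Gab1 and Serpina3n in hTNFtg versus WT, of Hp in infliximab versus untreated hTNFtg and of Il11ra1, Il11ra2 and Lcn2 in infliximab-treated hTNFtg versus WT. All genes raised in hTNFtg versus WT numbered 2218 with array quality weights and 1486 with edgeR. Depth limits most what hTNFtg replicate 1 can show, where 3 reads correspond to 18.7 normalized counts.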

Other observations

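For Il6 the genes with the most similar library-to-library pattern were Sqle, which encodes an enzyme of cholesterol synthesis, Alyref2 and Nelfcd, with root mean square differences of 0.154, 0.179 and 0.199 against a spread of 0.589 for Il6. Sqle was at 325, 366 and 729 normalized counts in WT, 243, 422 and 759 in untreated hTNFtg and 444, 380 and 234 with infliximab. As with Il6, replicate 3 stood highest in both untreated groups and lowest with infliximab, which the choice by likeness favours. Sqle passed the rule in none of the 3 comparisons. Nelfcd and Ctsz carried nearly the same counts in each library, so their reads could not be told apart.

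For Clcf1 the most similar were Tagap, Spsb3 and AW554918, at 0.210, 0.261 and 0.264 against a spread of 0.749. Tagap was at 41, 14 and 13 normalized counts in WT, 6, 24 and 7 in untreated hTNFtg and 19, 15 and 15 with infliximab. WT replicate 1 and hTNFtg replicate 2 stood high for it as for Clcf1, which the choice by likeness favours.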
